A study of Rattus norvegicus with 47 samples.

Results

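The B cell receptor signalling genes described here are 9 genes: Cd79a, Cd79b, Blnk, Bank1, Blk, Btk, Syk, Lyn and Plcg2. They were found by gene symbol among the 20935 symbols of the deposited table, and each is described by its probe set with the highest mean over the 6 time points. All 9 were found, 8 of them with 1 probe set and Bank1 with 6. The samples are whole blood cell pellets of 8 male spontaneously hypertensive rats (SHR), an inbred strain with high blood pressure, aged 16 weeks. Every rat had its middle cerebral artery (MCA) occluded by a thread, which was withdrawn between the 1 h and 2 h samples. The tail vein supplied a baseline sample from the awake rat (0 h) and those at 1, 2, 3 and 6 h, whereas the 24 h sample came from the heart of the killed animal. Times count from the occlusion. The samples hold no sham-operated group, so occlusion, surgery, anesthesia, repeated bleeding and time cannot be told apart in any change from 0 h. At 24 h the site of collection changed as well.

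The B cell receptor is a membrane immunoglobulin that has almost no cytoplasmic part and signals through its partners CD79A and CD79B. Lyn and other Src family kinases phosphorylate their tails, Syk binds there and is activated, and the adaptor Blnk then brings together Btk and phospholipase C gamma 2 (Plcg2), which releases calcium and activates protein kinase C. In blood leukocytes Cd79a, Cd79b, Blnk, Bank1 and Blk are expressed mainly by B cells. Btk, Syk, Lyn and Plcg2 are used in neutrophils, monocytes and platelets too, downstream of Fc receptors, integrins and lectin receptors.

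There were 47 arrays, 8 at each time point and 7 at 6 h. The values are the authors' means of the log2 RMA signal, with the authors' deposited SDs on the same scale, and a change of 1 means a signal 2 times as high. The median SD over the 27596 probe sets lay between 0.14 and 0.16. Changes were tested by a linear model over the 6 time points with limma's moderated variance, computed from these means and SDs, and p-values were adjusted over all probe sets by Benjamini-Hochberg. A probe set is called changed at an adjusted p below 0.05. Many genes of the array passed. Against 0 h these were 37.1%, 40.4%, 46.5%, 41.8% and 31.2% of probe sets at 1, 2, 3, 6 and 24 h in turn, and 55.5% passed the F-test over the 6 time points. A call alone therefore says little of a member, and the sizes of the changes carry the description. The median change over all probe sets was between 0.04 and 0.07 at the 5 later time points. No value of a single rat was used. The p-values therefore take the samples as independent, although each rat gave several.

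The B cell restricted members fell and the shared members parted. All 5 B cell restricted members fell at 1, 2, 3 and 6 h, where 15.4%, 18.6%, 19.2% and 19.3% of all probe sets were called lower. Their median changes at these times were -1.47, -1.98, -2.11 and -1.57. At 24 h it was -0.70, and 4 of the 5 were called lower, beside 13.9% of all probe sets. Of the 4 shared members, Plcg2 fell at all 5 later time points, and Btk fell at 1 h, when no member rose and 21.7% of all probe sets did. Syk rose at 2 h, when 21.7% of all probe sets did, and Syk and Lyn rose at 3 and 6 h, when 27.3% and 22.5% did. The median changes of these 4 at 1, 2, 3, 6 and 24 h were -0.16, 0.08, 0.10, 0.14 and 0.13. All 9 passed the F-test, with an adjusted p between 1.37e-22 for Cd79b and 0.00124 for Btk (limma). In these bulk samples, fewer cells of a type and less RNA per cell cannot be told apart. Per the paper, a fixed amount of RNA was amplified, so the signals are relative. A larger share of RNA from other cells cannot be told apart from either.

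**Figure D1:**
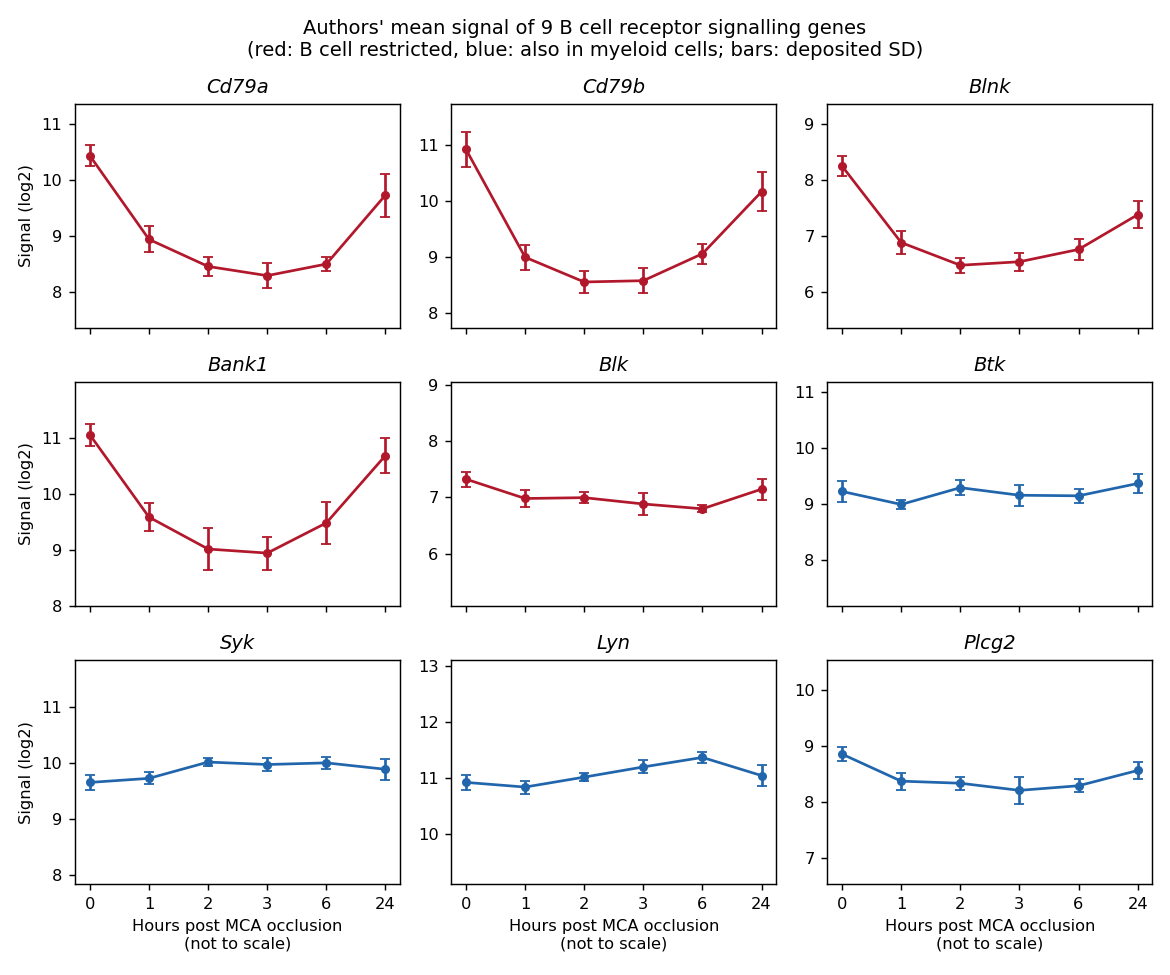
Authors' mean signal (log2, y axis) of each of the 9 genes at 0, 1, 2, 3, 6 and 24 h post MCA occlusion (x axis, not to scale), with the deposited SD as bars, where every panel spans the same range of log2 units. Cd79a, Cd79b, Blnk and Bank1 dropped by 1 h and were lowest at 2 or 3 h, while Blk and the 4 shared genes, in blue, moved far less.

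Cd79a and Cd79b encode the receptor's signalling chains. The Cd79a probe set lies on chromosome 1 of rn5, from 83020685 to 83024667, and carries the symbol Cd79al too, which RefSeq lists as another name of the same gene. Its mean signals at 0, 1, 2, 3, 6 and 24 h were 10.43, 8.94, 8.45, 8.29, 8.50 and 9.73, with deposited SDs from 0.13 to 0.38. Every mean from 1 to 6 h was far below that at 0 h compared with these SDs, and the 24 h mean lay between them and the 0 h mean. The largest fall was at 3 h, with a change of -2.14 (95% interval -2.37 to -1.91), or 4.41-fold, and an adjusted p of 2.67e-20 (limma). Cd79b lies on chromosome 10, from 94248651 to 94251801. Its means were 10.91, 8.99, 8.55, 8.57, 9.05 and 10.16 in the same order of time points, with SDs from 0.18 to 0.35. The fall came early: its change at 1 h was -1.92, the third most negative of the 27596 probe sets, and 81.3% of its largest change, against 69.8% for Cd79a. At 2 h the change was -2.37 (95% interval -2.61 to -2.12), which is 5.16-fold lower, with an adjusted p of 1.22e-20 (limma). At 24 h Cd79a was at 61.5% and Cd79b at 59.3% of the 0 h signal on the linear scale, both still called lower with adjusted p-values of 7.30e-06 and 6.53e-06 (limma).

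Blnk and Bank1 are adaptors without enzyme activity, Blnk linking Syk to Btk and Plcg2, and Bank1 binding Lyn and calcium channels of the endoplasmic reticulum. Blnk lies on chromosome 1 of rn5, from 267630218 to 267697917. The mean signals of Blnk over the 6 time points were 8.25, 6.88, 6.48, 6.54, 6.76 and 7.38, with SDs of at most 0.24. Its largest change, -1.77 (95% interval -1.95 to -1.58) at 2 h, was 7.22 times its highest SD, the largest such ratio of the 9 genes. Blnk also kept the most of its fall. Its change at 24 h was -0.87, or 49.0% of the largest, with an adjusted p of 9.34e-10 (limma). The Blnk mean at 2 h, 6.48, lay below the median of 6.64 over all probe sets. How far a low signal limits its fall was not tested. Bank1, by its brightest probe set, had means of 11.05, 9.58, 9.01, 8.94, 9.48 and 10.68, with SDs from 0.19 to 0.38. Its change reached -2.11 (95% interval -2.40 to -1.82) at 3 h and was -0.37 at 24 h, so that 17.5% of the fall was left. This last change passed the threshold narrowly, with an adjusted p of 0.0485 (limma), and it no longer passed in 3 alternatives, whose adjusted p-values were between 0.0501 and 0.0719.

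The 6 probe sets of Bank1 lie between 259831472 and 260099770 on chromosome 2 of rn5, and the brightest covers 152 bases from 260030808 to 260030959. All 6 were called lower at each of the 5 later time points. They differed in depth: the change at 2 h ran from -1.30 in probe set 10826958 to -2.23 in probe set 10826969. The lowest mean was at 3 h in 4 of them and at 2 h in 10826943 and 10826969. At 24 h the changes were between -0.37 and -0.65, and the brightest probe set had the smallest of them and the only adjusted p above 0.001 (limma).

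**Figure D2:**
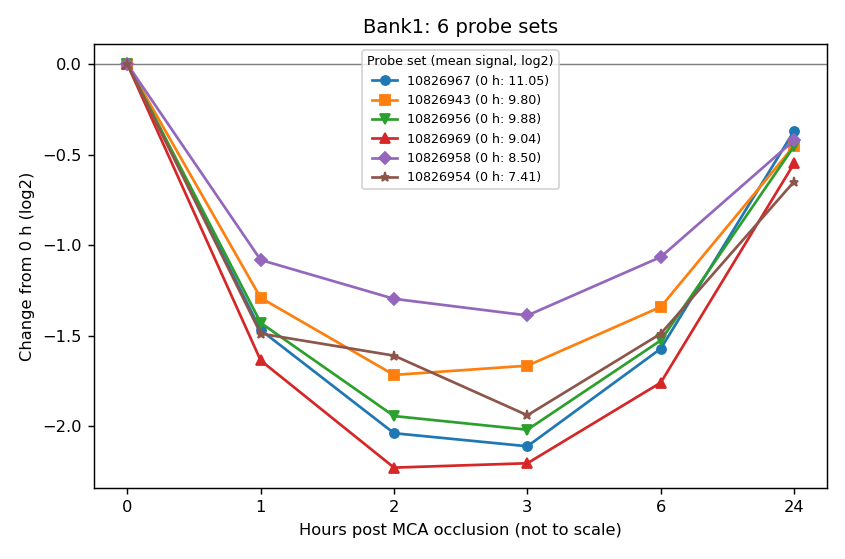
Change from 0 h (log2, y axis) of the 6 probe sets annotated to Bank1 against hours post MCA occlusion (x axis, not to scale); each line is 1 probe set, with its mean signal at 0 h in the key. All 6 fell at 1 h and were lowest at 2 or 3 h, and at 2 h they ranged from -1.30 to -2.23.

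Promoter sequences from RefSeq (build GRCr8), from 250 bases before the start site to 50 bases from it, were given for 6 of the 9 genes, all but Cd79b, Blk and Lyn. They were searched on both strands for the octamer ATGCAAAT, the EBF core CCCNNGGG and the PU.1 core GAGGAAG, motifs known from B cell or myeloid promoters. The 3 B cell restricted members with a sequence are shown because their signals fell together, and capitals mark the matches.
Cd79a, chr1:89621210-89621509, plus strand of GRCr8: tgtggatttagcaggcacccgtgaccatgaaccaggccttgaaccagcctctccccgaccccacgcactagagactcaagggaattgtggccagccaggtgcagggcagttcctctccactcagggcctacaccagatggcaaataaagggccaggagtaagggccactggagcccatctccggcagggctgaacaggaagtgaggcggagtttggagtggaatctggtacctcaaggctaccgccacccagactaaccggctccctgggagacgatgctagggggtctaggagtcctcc
Blnk, chr1:249770484-249770783, minus strand of GRCr8: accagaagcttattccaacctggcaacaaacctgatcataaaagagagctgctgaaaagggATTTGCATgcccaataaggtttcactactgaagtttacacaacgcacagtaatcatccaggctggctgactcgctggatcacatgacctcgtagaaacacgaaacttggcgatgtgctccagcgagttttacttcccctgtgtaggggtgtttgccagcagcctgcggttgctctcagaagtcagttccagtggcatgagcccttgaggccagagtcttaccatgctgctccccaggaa
Bank1, chr2:227473666-227473965, minus strand of GRCr8: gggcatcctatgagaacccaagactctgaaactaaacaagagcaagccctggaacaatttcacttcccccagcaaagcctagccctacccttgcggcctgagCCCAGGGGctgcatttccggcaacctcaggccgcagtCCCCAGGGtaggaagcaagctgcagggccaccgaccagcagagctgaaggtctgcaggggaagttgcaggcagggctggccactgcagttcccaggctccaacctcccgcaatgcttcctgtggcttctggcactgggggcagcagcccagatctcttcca
The Blnk promoter holds the octamer in reverse orientation, at position -189 from the start site, a motif found in 1.64% of 27457 promoters of the same length. The Bank1 promoter holds 2 EBF cores, at positions -148 and -111, and 12.7% of promoters hold at least 1. None of the 3 motifs was matched letter for letter in the Cd79a window. Among the shared members the PU.1 core was matched in Btk alone, and 12.4% of promoters hold it. A match is a match of letters and not a bound site. Sites that differ from these letters are missed, so the lack of a match does not show the lack of a site.

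Blk, a Src family kinase named for B lymphoid cells, changed less than the other B cell restricted members up to 6 h. It lies on chromosome 15 of rn5, from 50317854 to 50355727. Its mean signals over the 6 time points were 7.33, 6.98, 7.00, 6.88, 6.80 and 7.15, with SDs from 0.06 to 0.20. The means from 1 to 6 h were all below that at 0 h, with changes from -0.33 to -0.53. The largest change was at 6 h, -0.53 (95% interval -0.68 to -0.38), or 1.44-fold, with an adjusted p of 1.39e-07 (limma). At 2 h the change was -0.33 (95% interval -0.48 to -0.18), and the intervals of the other B cell restricted members at that time ended at -1.58 or lower. At 24 h the change was -0.18, with an adjusted p of 0.0565 (limma), and the call turned with the processing: the adjusted p was 0.0481 without the probe sets of lowest signal and 0.0204 with each time point centred on its median. The median signal over all probe sets at 0 h was 6.61, against 7.33 for Blk, and how far a low signal limits its fall was not tested.

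**Figure D3:**
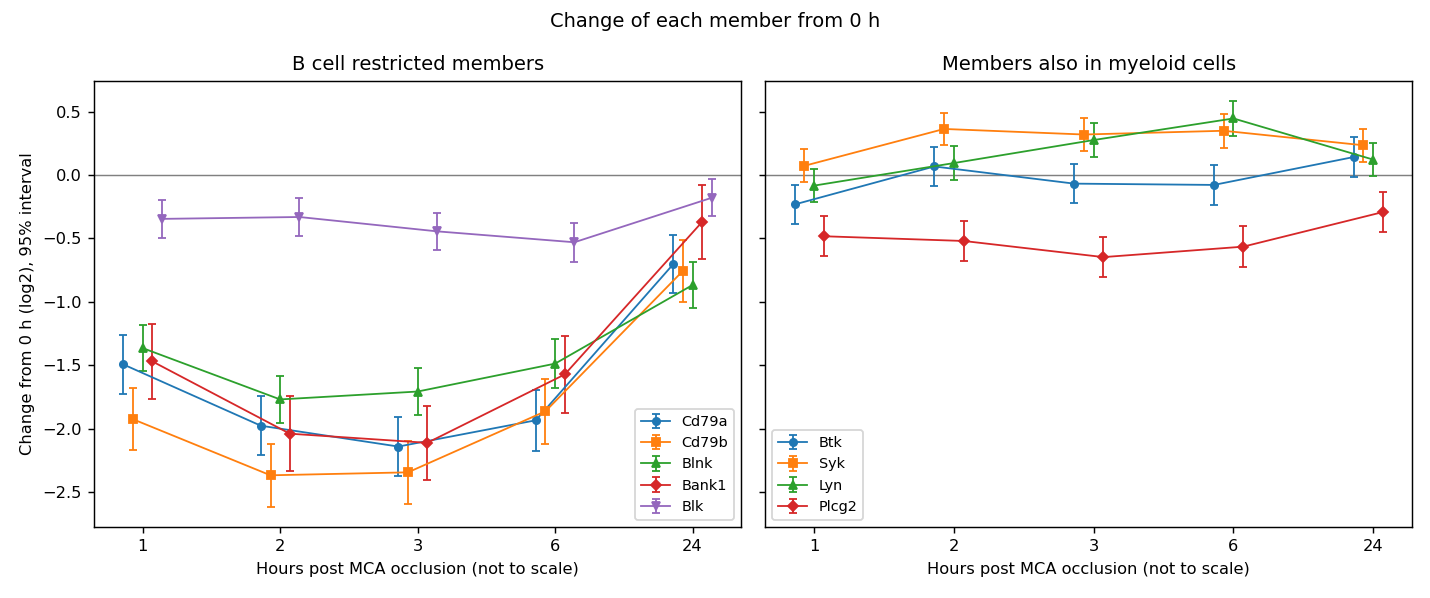
Change from 0 h (log2, y axis) with its 95% interval at 1, 2, 3, 6 and 24 h post MCA occlusion (x axis, not to scale), for the 5 B cell restricted genes (left) and the 4 genes also used in myeloid cells (right). On the left Blk lies apart from the other lines up to 6 h, and on the right Plcg2 lies below Btk, Syk and Lyn.

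Syk, the kinase that docks on the phosphorylated CD79 tails and on Fc receptor gamma chains, rose. It lies on chromosome 17 of rn5, from 14703903 to 14759165. Its mean signals over the 6 time points were 9.65, 9.72, 10.01, 9.97, 10.00 and 9.88, with SDs from 0.07 to 0.19. The 1 h mean was 0.07 above that at 0 h, with an adjusted p of 0.386 (limma), and the rise appeared at 2 h. The change at 2 h was 0.36 (95% interval 0.23 to 0.49), or 1.29-fold, with an adjusted p of 9.43e-06 (limma). It was 0.32 at 3 h and 0.35 at 6 h, and 0.23 was left at 24 h with an adjusted p of 0.00479 (limma). Syk was the only member called higher at 24 h, where 17.4% of all probe sets were.

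Lyn, a Src family kinase that both starts receptor signalling and activates its inhibitors, rose later. The gene lies on chromosome 5 of rn5, from 21307088 to 21422844. Its means were 10.93, 10.85, 11.02, 11.21, 11.38 and 11.05, with SDs from 0.07 to 0.18. The 1 h and 2 h means were within 0.10 of that at 0 h and neither passed the test. The rise was 0.28 at 3 h and 0.45 (95% interval 0.31 to 0.58) at 6 h, 1.36-fold, with adjusted p-values of 5.46e-04 and 4.23e-07 (limma). From 6 h to 24 h Lyn fell by 0.32, with an adjusted p of 2.56e-04 (limma).

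Btk, the Tec family kinase that activates Plcg2 and is lost in X-linked agammaglobulinemia, lies on chromosome X of rn5, from 105250665 to 105279934. It had means of 9.22, 8.98, 9.28, 9.15, 9.14 and 9.36, with SDs from 0.08 to 0.19. The lowest was at 1 h, with a change of -0.23 (95% interval -0.39 to -0.08) and an adjusted p of 0.0156 (limma). Under quantile normalization of the time point means this change was -0.16 with an adjusted p of 0.113. From 1 h to 2 h Btk rose by 0.30, with an adjusted p of 0.00757 (limma). At 2, 3 and 6 h its change from 0 h lay between -0.08 and 0.07 and the 95% intervals ran from -0.24 to 0.22, so that falls of the size seen in Cd79a were outside them.

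Plcg2, the phospholipase that produces the calcium and protein kinase C signals, fell to a lesser depth. The gene lies on chromosome 19 of rn5, from 60891282 to 60962640. Its means were 8.85, 8.37, 8.33, 8.21, 8.29 and 8.56, with SDs from 0.12 to 0.24. All 5 later means were below that at 0 h by more than these SDs. The largest change was -0.65 (95% interval -0.80 to -0.49) at 3 h, or 1.57-fold, with an adjusted p of 3.30e-09 (limma). At 24 h it was -0.29 with an adjusted p of 0.00412 (limma).

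Set side by side, Cd79a, Cd79b, Blnk and Bank1 changed more negatively than every shared member at each of the 5 later time points. At 1, 2, 3 and 6 h the 95% intervals of these 4 lay below those of every shared member, and at 24 h this held for 3 of them, without Bank1. Blk was the exception and lay above Plcg2 at each time point. The difference between the median changes of the 2 groups, in the order of the 5 later time points, was -1.31, -2.06, -2.21, -1.71 and -0.83. With Bank1 as the mean of its 6 probe sets, it was -1.89 at 2 h and -1.99 at 3 h. Differences between genes were not tested, since their covariance over arrays is not in the means. Within the B cell restricted group at 2 h, the interval of Cd79b (-2.61 to -2.12) did not overlap that of Blnk (-1.95 to -1.58). Those of Cd79b, Bank1 (-2.33 to -1.74) and Cd79a (-2.21 to -1.75) overlapped. The mean signal at 2 h was 6.48 for Blnk and 8.55 for Cd79b. How far the low signal of Blnk limits its fall was not tested.

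After the step from 0 h to 1 h, described above, members were called in 3 of the 4 later steps between neighbouring time points. From 1 h to 2 h Cd79a, Cd79b, Blnk and Bank1 fell further, with changes of -0.48, -0.44, -0.40 and -0.57, while 4.11% of all probe sets were called lower. In the same step Syk and Btk rose, by 0.29 and 0.30, while 4.66% were called higher, which makes 8.78% in either direction. From 2 h to 3 h none of the 9 was called by limma, 1 of them (Lyn) having an unadjusted p below 0.05, and 3.53% of all probe sets were called (1.9% higher, 1.62% lower). From 3 h to 6 h Cd79b and Bank1 rose, by 0.48 and 0.54, beside 4.78% of all probe sets (2.34% higher, 2.44% lower). With the variance taken from these 2 time points alone, Bank1 no longer passed, with an adjusted p of 0.0660. From 6 h to 24 h all 5 B cell restricted members rose, beside 18.9% of all probe sets called (10.2% higher, 8.68% lower), by 0.35 (Blk) to 1.23 (Cd79a). Plcg2 and Btk rose too in this step, by 0.27 and 0.22, and Lyn fell. The Btk step, with an adjusted p of 0.0447 (limma), missed the threshold in 3 alternatives, where the adjusted p was between 0.0510 and 0.0724.

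Other genes of the pathway were taken from 6 lists by role, with 57 of 60 listed symbols measured; 3 are also among the B cell markers and 1 among the T cell markers. At 2 h, 27 of the 57 were called lower and 11 higher, where 18.6% of all probe sets were lower and 21.7% higher. The median change of the 57 was -0.14, against 0.05 over all probe sets. The counts of calls at 2 h in each list below stand against these same shares. In the list of the receptor and its coreceptors 5 of 6 fell, beside 18.6% of all probe sets, with a median change of -0.87. Igd, the immunoglobulin delta heavy chain, fell by 2.21 (SE 0.12), with an adjusted p of 2.88e-20 (limma). The sixth was Ighm, the mu heavy chain, whose signal at 0 h was 6.96, near the median of 6.61 over all probe sets, and whose change of 0.06 at 2 h was not called. At 24 h 3 of the 6 were still lower, beside 13.9% of all probe sets.

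Of 11 genes listed as inhibitory, 5 fell and 4 rose at 2 h, beside 18.6% and 21.7% of all probe sets. Whether each inhibits the receptor was not tested. Fcrla, an Fc receptor-like protein of B cells, had a change of -2.06 (SE 0.12), and Cd22, the sialic acid-binding lectin that recruits the phosphatase SHP-1, one of -1.42 (SE 0.13). Pirb, an inhibitory receptor of B cells and myeloid cells, rose by 1.59 (SE 0.09) and Fcgr2b, the inhibitory Fc receptor, by 0.75 (SE 0.06). The value for Fcgr2b is from the brighter of its 2 probe sets, which carries the symbol Fcgr2a too and does not separate these genes. Its other probe set is not reported. All 4 changes had an adjusted p of at most 4.78e-13 (limma).

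Downstream, of 7 adaptors, Pik3ap1, which links B cell receptor signalling to PI3 kinase, fell by 0.34 at 2 h, and Nck1 and Grb2, adaptors of many receptors, rose by 0.56 and 0.33. Of 16 enzymes and channels, 7 fell and 2 rose at 2 h, beside 18.6% and 21.7% of all probe sets. Rasgrp1, a Ras activator known best from T cells, fell by 1.28 (SE 0.10), and Itpr1, a calcium channel of the endoplasmic reticulum, fell by 1.16 (SE 0.09). Vav1 and Prkcd rose by 0.32 and 0.19. In the NF-kB and NFAT list 5 of 8 fell, beside 18.6% of all probe sets, with Malt1, a paracaspase of the NF-kB pathway, at -1.29 (SE 0.13). All named changes of these lists had an adjusted p of at most 0.00800 (limma).

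Among 9 other kinases of the Src, Syk and Tec families, the T cell kinases Fyn and Lck changed by -0.91 (SE 0.12) and -0.80 (SE 0.11) at 2 h. Bmx, a Tec family kinase known from neutrophils and endothelium, rose by 2.42 (SE 0.13), the largest rise in the 6 lists at that time, and Fgr, a myeloid Src family kinase, rose by 0.30 (SE 0.09). In all, 4 of the 9 fell and 3 rose, beside 18.6% and 21.7% of all probe sets.

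**Figure D4:**
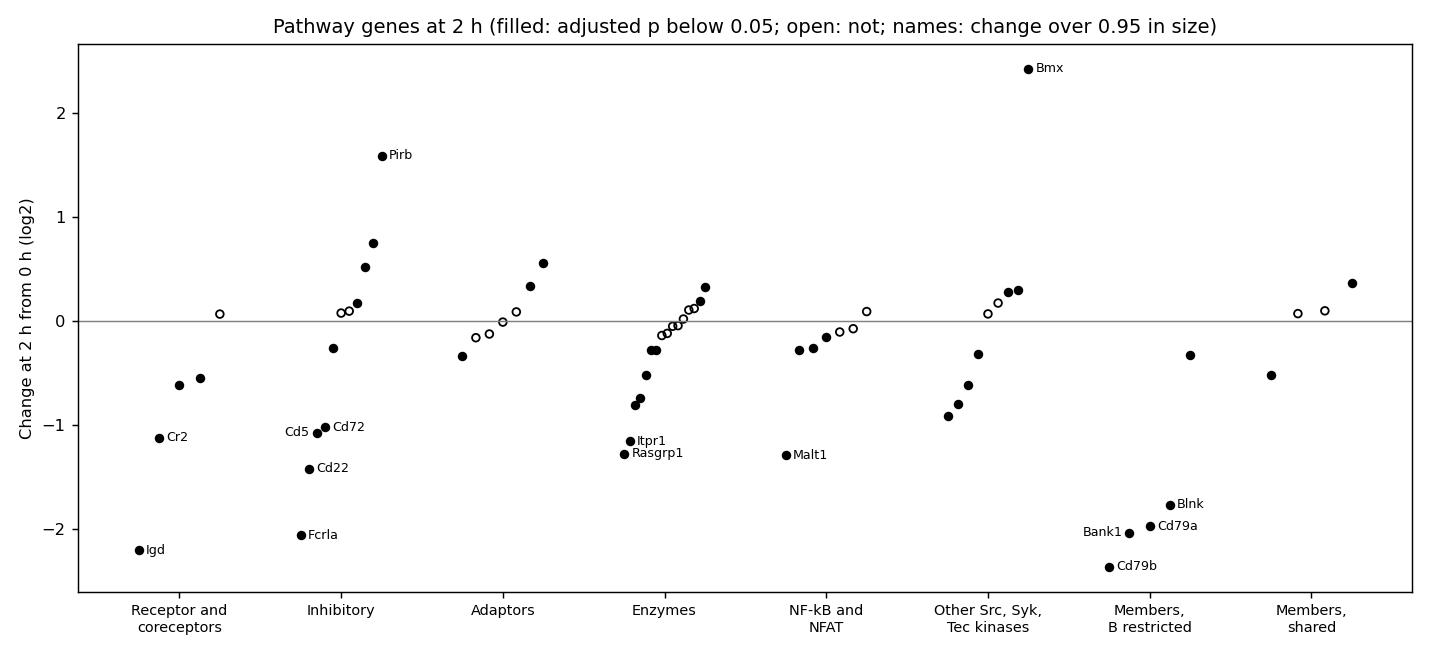
Change at 2 h from 0 h (log2, y axis) of the genes of 6 pathway lists, where reported here, and of the 9 members, grouped by role along the x axis; each point is a gene, filled where its adjusted p was below 0.05, and genes changed by more than 0.95 in size are named. The 4 lowest B cell restricted members lie beside Igd and Fcrla, and Bmx and Pirb lie highest.

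Markers of the blood cell types were measured in the same arrays, where 15.4% of all probe sets were lower at 1 h, and at 2 h 18.6% were lower and 21.7% higher. Of 8 B cell markers, 7 were called lower at 1 h and 8 at 2 h, with median changes of -1.58 and -2.11, and their summed signal on the linear scale at 2 and 24 h was 30.8% and 69.6% of the 0 h signal. Cd79a, Cd79b, Blnk and Bank1 lay within 0.37 of the B cell marker median at each of the 5 later time points. The marker list held a gene that moved little too, Pax5, the transcription factor of B cell identity, with a change of -0.18 at 2 h and an adjusted p of 0.0171 (limma). T cell markers had a median change of -0.81 at 2 h and -1.09 at 6 h, and all 8 were lower at both, beside 19.3% of all probe sets at 6 h. Of 9 neutrophil markers 8 were higher at 2 h, with a median change of 1.48, and their summed signal at 2, 6 and 24 h was 291%, 295% and 169% of the 0 h signal. The neutrophil marker not called was Ltf, with a signal of 5.86 at 0 h and a change of 0.01 at 2 h. Of 7 monocyte markers 5 were lower and 1 higher at 1 h, beside 15.4% and 21.7% of all probe sets. Their median change was -0.40 and their summed signal 80.2% of that at 0 h. Btk and Plcg2 fell at 1 h too, but Plcg2 was lowest at 3 h, with a change of -0.65. At 2, 3 and 6 h 3 of the monocyte markers were higher and 3 lower, and at 24 h 1 was higher and 3 were lower. Beside these, 21.7%, 27.3%, 22.5% and 17.4% of all probe sets were higher, and 18.6%, 19.2%, 19.3% and 13.9% lower. The median changes of these markers at 2, 3, 6 and 24 h were -0.13, 0.12, -0.01 and -0.17. Their summed signals were 109%, 115%, 109% and 86.6%. The probe set of Ccr2, the brightest of them at 0 h, carries another symbol too. Of 5 platelet markers none was lower at any time, and 2, 1, 1, 0 and 3 were higher at 1, 2, 3, 6 and 24 h, beside 21.7%, 21.7%, 27.3%, 22.5% and 17.4% of all probe sets. The summed signal of 6 erythroid markers stayed between 94.0% and 109% of that at 0 h. The part of these shifts in the values of Syk, Lyn, Btk and Plcg2 was not tested.

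**Figure D5:**
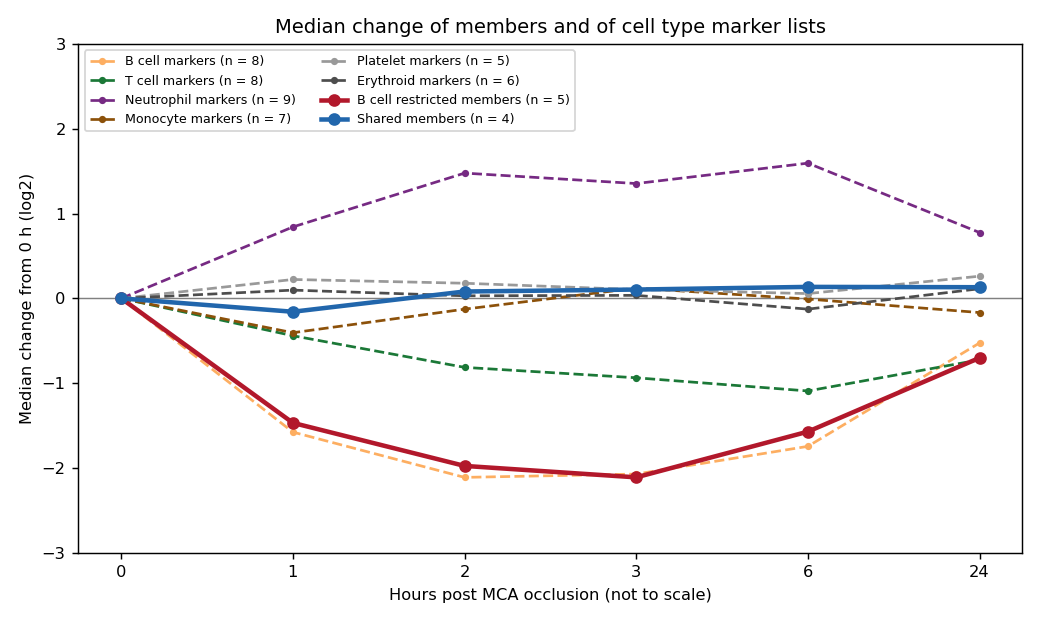
Median change from 0 h (log2, y axis) of the 5 B cell restricted and the 4 shared members (solid lines) and of 6 cell type marker lists (dashed lines) against hours post MCA occlusion (x axis, not to scale). The line of the B cell restricted members runs near that of the B cell markers, with -2.11 at 3 h against -2.07, and neutrophil markers rise to 1.59 at 6 h.

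The genes whose 5 changes were nearest to the members' were sought by Euclidean distance among 19410 other genes with a probe set of a single symbol. For the mean of the 5 B cell restricted members, which was -1.70 at 2 h and -1.75 at 3 h, the nearest were Trpm6 (distance 0.17), Gpr174, LOC100361706, Kynu and Pde6h. Trpm6, a magnesium channel kinase, had changes of -1.16, -1.66, -1.69, -1.46 and -0.54 at the 5 later time points. For Syk the nearest were Svil, C1ql3, Thpo, Cdk5r1 and Rag2, and for Lyn they were Ddx6, Vapa, Golga5, Myo9a and LOC685431. For Plcg2 they were Slc6a16, Mettl3, Mrps31, Csk and Ltv1. Csk, the kinase that restrains Src family kinases, is one of the pathway genes listed above and had changes of -0.45, -0.52, -0.61, -0.51 and -0.36, at a distance of 0.10. For Btk, with small changes, the nearest were Olr726, LOC685747, Olr1566, Pln and Olr1252. Each likeness is over 5 changes that share the 0 h samples. The distance takes in the size of the changes as well as their shape, and it is a description only. The mean of the 5 B cell restricted members includes Blk, at -0.33 at 2 h. The other members of that group lay between -2.37 and -1.77 at that time.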

How the data were processed

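Blood cell pellet RNA of 8 rats was amplified and hybridized by the authors to RaGene-1_0-st-v1 arrays. Per the file headers, the deposited log2 values are RMA signals summarised per gene, with annotation on rn5; the authors gave for each time point the mean and SD over its arrays. The submitters' processing notes name limma. Samples were randomized by the authors over workup batches, which no label gives, so batch was not tested. The deposited table also holds 47 columns of single arrays, whose names are in no label and which were not used, and the authors' fold changes, p-values, FDRs and F-tests, which were not used either. The deposited values give no background signal, and the 7 or 8 arrays per time point limit the precision.

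The linear model over time points was computed from each time point's mean, SD and number of arrays as deposited (pooled variance, then limma 3.58.1 squeezeVar, R 4.3.3, two-sided), with no filter. It assumes that the columns hold plain averages and sample SDs. The computation was tested on simulated data. The members and gene lists were chosen with earlier results of these data known. For a symbol the probe set with the highest mean was taken. From each pathway list, up to 2 genes with the largest fall and 2 with the largest rise at 2 h, adjusted p below 0.05, were named with their values (a few genes are counted in the lists but not reported here), and the nearest 5 genes per profile. Ighm, Pax5 and Ltf were named after their values were seen. Promoters were matched by symbol. Alternatives changed the signal filter, centring, normalization, variance, time points and probe set choice.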

Additional observations from a re-analysis of the deposited data

How the results depend on the processing

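No paired analysis was possible because the columns of single arrays could not be matched to a rat by name, so the rat as a block was not run, nor could a single array be left out. Under 8 alternatives for the members' changes, steps and F-tests, 8 calls were lost and 5 gained. Most alternatives leave the changes themselves as they are and move only the p-values; only centring, quantile normalization and, for Bank1, the mean over probe sets move a change, and under these no called change reversed. The calls that turned were those of Bank1 at 24 h and from 3 h to 6 h, Blk at 24 h, Btk at 1 h, at 24 h and from 6 h to 24 h, and Lyn from 1 h to 2 h. For Btk at 24 h the adjusted p was 0.0258 under quantile normalization of the means (limma), and for Lyn from 1 h to 2 h it was 0.0462 after centring and 0.0460 with the variance of the 2 time points compared. The number of probe sets called from 3 h to 6 h moved from 1319 to 737 when the variance came from those 2 time points alone; the cause was not tested. With Bank1 as the mean of its probe sets, the difference between the group medians moved from -2.06 to -1.89 at 2 h and from -2.21 to -1.99 at 3 h. Centring shifted the changes by 0.03 to 0.05. Whole-table counts were not recomputed for the mean over probe sets. With 7 or 8 arrays per time point, the SEs of the members' changes were between 0.06 and 0.15.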
